A study of Homo sapiens with 20 samples.

Results

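Cisplatin crosses the cell membrane partly on proteins that also carry copper, and 7 genes of this traffic were examined for m6A, the methylation of adenosine in RNA. They were chosen by name: the copper transporters SLC31A1 (CTR1) and SLC31A2 (CTR2), the copper chaperone ATOX1, the copper-exporting ATPases ATP7A and ATP7B, and LRRC8A and LRRC8D, subunits of the volume-regulated anion channel (VRAC). A peak was counted for a gene when its summit lay in an exon of that gene. By this rule 144 of 231465 peaks belonged to 6 of the 7 genes, and they fell into 21 of the 43676 regions made by merging the peak lists. T24 is a human bladder cancer line sensitive to cisplatin, and T24R2 is a resistant line derived from it by serial exposure to the drug and kept in medium with cisplatin. Both are labelled as wild type and were harvested at day 3. Methylated RNA immunoprecipitation with an anti-m6A antibody (IP) was run on 5 replicates of each line, each with an input library taken without antibody, which makes 20 samples. The 10 IP peak lists were analysed, and the inputs entered only as the authors' background for calling peaks. T24R2 is 1 derived line, and the labels do not say whether replicates were separate cultures, so every p measures the spread between these libraries only.

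CTR1 is the main high-affinity copper importer of the plasma membrane and is known to affect the entry of cisplatin, while CTR2 is its mostly intracellular relative. ATOX1 hands copper to ATP7A and ATP7B in the secretory pathway, and both ATPases can bind platinum and have been linked to cisplatin resistance in cultured cells. LRRC8A is the obligatory subunit of VRAC, and channels that also contain LRRC8D let in cisplatin and other small solutes. m6A is laid down on messenger RNA by the METTL3 and METTL14 complex, mostly in long internal exons and near stop codons, at a short motif called DRACH.

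The motif has A, G or T in its first position, A or G in its second, then A and C, and A, C or T in its last. The DRACH match nearest to the median summit is shown here for the region of SLC31A2, that of ATOX1 and the regions of the exporters and channel subunits on which the comparisons turn. Each sequence is read in the sense of the gene from hg38, with the motif in capitals and the strand after the coordinates.
SLC31A2 3′UTR, chr9:113163339-113163363, plus: atcgcccattGGACTtcctgacctc
ATOX1 CDS, chr5:151746374-151746398, minus: agcacagcatGGACActctgcttgc
ATP7A CDS exon 3, chrX:77988544-77988568, plus: gctggttccaGAACTcagtttagat
ATP7B 3′UTR, chr13:51934525-51934549, minus: tggcctcacgGGACCgtcagcatgg
LRRC8A distal 3′UTR, chr9:128917529-128917553, plus: cacttcgcccAGACTttgtttcccc
LRRC8D CDS before the stop codon, chr1:89935488-89935512, plus: ggaactgcttGGACCgcctgccagc
A match near a summit is a description and does not show that this adenosine was the methylated one. Within 50 nt on each side of the median summit, 19 of the 21 regions held DRACH on the sense strand (90.5%) and 85.7% held it on the antisense strand. The shares over all 27505 exonic regions that lay in genes of 1 strand were 89.0% and 72.4%. The form GGACT was found on the sense strand in 2 of the 21 regions, those in the 3′UTRs of SLC31A2 and ATP7B (9.52%), against 16.3% of all these exonic regions. The antisense strand held GGACT in 4.76% of the 21 regions and in 7.75% of all. The 5′UTR regions of LRRC8A and LRRC8D had no DRACH match in their windows.

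The exporters and the channel subunits carried m6A peaks in every library, and SLC31A1, SLC31A2 and the chaperone did not. ATP7A, ATP7B, LRRC8A and LRRC8D each had at least 1 exonic peak in all 10 libraries, with 24, 31, 48 and 30 peaks in all. SLC31A2 had 8 peaks in 7 libraries, ATOX1 had 3 peaks in 3 libraries, and SLC31A1 had no exonic peak in any. T24 libraries held 13, 12, 16, 14 and 14 peaks of the 7 genes (13.8 ± 1.48, SD, n = 5) and T24R2 libraries held 15, 15, 13, 13 and 19 (15 ± 2.45, SD, n = 5). The counts of the lines overlapped. The lists themselves ran from 17203 to 33120 peaks, with the longest in T24R2 replicate 5, and the 7 genes took 0.0676 ± 0.00537% of a list in T24 and 0.0583 ± 0.00616% in T24R2 (SD, n = 5). The lists hold no reads, so depth is unknown and a missing peak cannot be told apart from low expression. Of the 21 regions, 14 had their median summit in coding sequence (CDS), 4 in a 3′UTR and 3 in a 5′UTR.

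**Figure D1:**
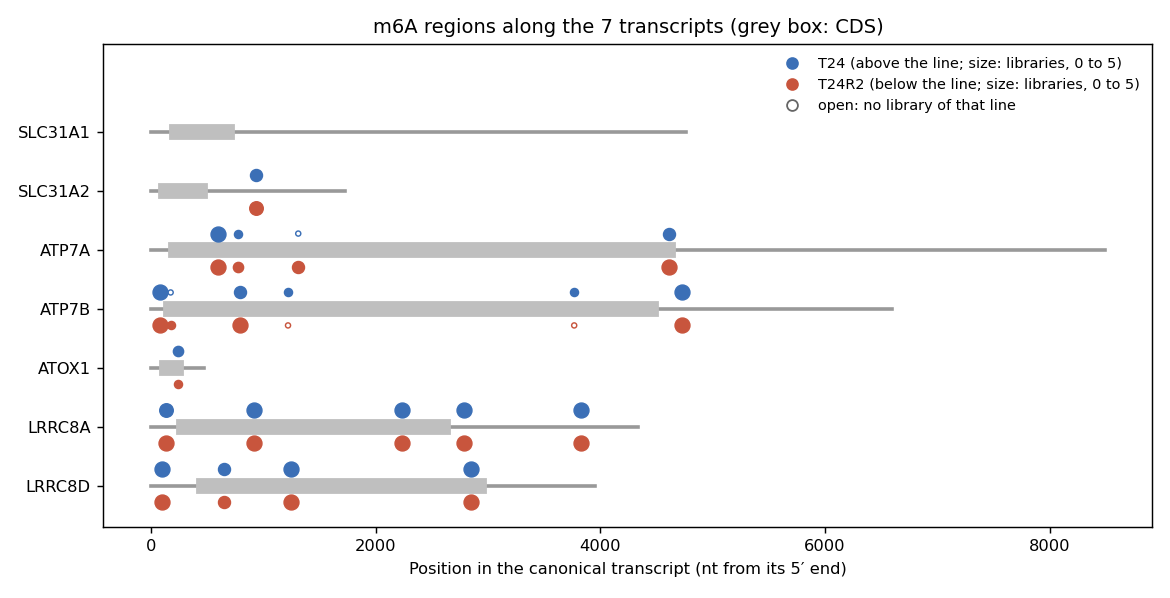
Regions with m6A peaks along the canonical transcript of each gene, in nt from the 5′ end, with the coding sequence as a grey box. Each circle is a region at its median summit, T24 above and T24R2 below, and its size gives the number of libraries of that line with a peak there (0 to 5, open at 0). SLC31A1 has no circle, and the 10 regions found in all 10 libraries lie in ATP7A, ATP7B, LRRC8A and LRRC8D.

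Presence of a region was compared between the lines by counting libraries. Of the 21 regions, 10 (47.6%) were present in all 10 libraries, against 21.9% of all regions, which include those outside exons. Of the 27505 exonic regions in genes of 1 strand, 8014 were present in all 10 libraries. The region at the start of LRRC8D is among the 10, although its summits lay in an LRRC8D exon in only 2 libraries of each line. The lines had equal numbers of libraries in 11 regions, T24R2 had more in 7 and T24 had more in 3. Over all regions 52.6% were present in more T24R2 libraries and 19.6% in more T24 libraries. No region of the 7 genes passed Fisher's exact test (two-sided, 5 against 5 libraries), neither at an unadjusted p under 0.05 in either direction nor after Benjamini-Hochberg adjustment. The background was 7.11% of all 43676 regions with an unadjusted p under 0.05 and more T24R2 libraries, 2.09% with more T24 libraries, and 0% after adjustment. With 5 libraries a line, only a region present in 4 to 6 libraries in all can reach an unadjusted p under 0.05, and 1 of the 21 regions was, at codon 82 of LRRC8D with 3 libraries of each line. The smallest Fisher's exact p among the members was 0.167, for an ATP7A region.

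Strength was compared in the 9577 regions present in all 10 libraries. The measure was fold enrichment, the peak caller's ratio of IP over input, taken on the log2 scale at the strongest peak of each library in the region and centred on that library's median over these regions. All 10 member regions in this set were tested with limma. None passed an adjusted p of 0.05, against 0.794% of the 9577 regions. On simulated data this limit recovered 0% of planted changes of 0.5 and 41% of changes of 1 on the log2 scale. A change of the size estimated in these regions could therefore go uncalled. At an unadjusted p under 0.05, limma called 1 member region higher in T24R2, in the distal 3′UTR of LRRC8A, where 7.6% of all tested regions were called in that direction. It called 1 higher in T24, before the stop codon of LRRC8D, where 6.36% of all were called. An exact permutation test called the same 2 regions at an unadjusted p under 0.05, where 12.9% of all tested regions were called, and 0 after adjustment (0% of all). The median of the 10 estimated differences was 0.06 on the log2 scale, against 0.02 over all tested regions.

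**Figure D2:**
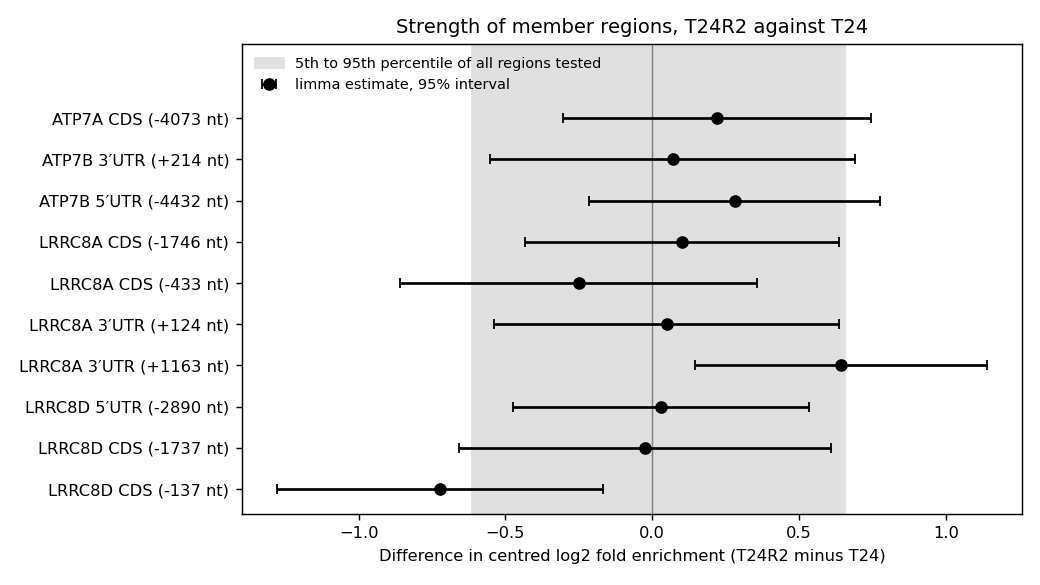
Difference in centred log2 fold enrichment between T24R2 and T24 for the 10 regions present in all 10 libraries, with 95% intervals from limma. The grey band spans the 5th to the 95th percentile of the differences of all 9577 tested regions (-0.61 to 0.66). The intervals of the LRRC8A region 1163 nt past the stop codon and of the LRRC8D region 137 nt before it leave out 0, and the other 8 include it.

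SLC31A1, the importer most often tied to cisplatin entry, had no exonic peak and no other peak within its gene body (chr9:113221544-113264492, plus strand) in any library. Its canonical transcript is 4762 nt long with a 3′UTR of 4019 nt, and it holds 87 DRACH matches and 5 GGACT. Per 1000 nt these are 18.3 DRACH and 1.05 GGACT, against medians of 19.0 and 0.925 over 20046 protein-coding genes. Of those genes 48.9% likewise had no exonic peak, and so did 30.0% of the genes whose transcript is at least as long. The SLC31A1 transcript thus had motif densities near the medians and no called peak.

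SLC31A2, which lies beside SLC31A1 on chromosome 9, had 1 region in its 3′UTR (chr9:113163095-113163878), with a median summit 435 nt past the stop codon in the last exon. Distances are counted from the last base of the stop codon. Peaks were found in 3 T24 libraries, with fold enrichments of 6.79 in replicate 1, 6.21 in replicate 3 and 7.35 in replicate 4. They were found in 4 T24R2 libraries, at 7.03 in replicate 2, 4.54 in replicate 3, 9.67 in replicate 4 and 7.88 in replicate 5. The values of the lines overlapped, and Fisher's exact test did not separate their presence (p = 1). All 8 summits also lay in an exon of FKBP15, a gene read from the opposite strand. The lists carry no strand, so the 8 peaks cannot be given to either gene.

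ATOX1, the chaperone, had 1 region in coding sequence (chr5:151746307-151746478), centred 49 nt before the stop codon in an exon of 171 nt. Its peaks were weak, with fold enrichments of 3.59 in T24 replicate 3, 2.47 in T24 replicate 4 and 4.4 in T24R2 replicate 5. They ranked at percentiles 6.47, 1.14 and 16.4 of their lists, where 100 is the strongest peak. None of them stayed when every list was shortened to the 17203 peaks with the lowest q-values. The ATOX1 transcript is 471 nt long, and 88.0% of protein-coding genes with a transcript no longer than this had no exonic peak. Another 12 peaks in 2 regions lay in the ATOX1 gene body outside its exons and were not counted.

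ATP7A, the exporter that loads copper into enzymes of the secretory pathway in most tissues, carried one of the strongest peaks of the set in exon 3. This region (chrX:77988128-77988704) was present in all 10 libraries with a median summit at codon 144. Its fold enrichment was 17.3, 17.3, 17.2, 13.9 and 14.4 in T24 replicates 1 to 5 (16.0 ± 1.71, SD, n = 5). In T24R2 it was 20.6, 30.1, 15.4, 13.0 and 24.8 (20.8 ± 6.93, SD, n = 5). T24R2 held both the highest and the lowest value, and the percentiles in the lists ran from 87.4 to 99.6. The centred log2 difference was 0.22 (SE 0.25, 95% interval -0.31 to 0.74, limma adjusted p = 0.768).

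The other 3 regions of ATP7A were also in coding sequence and were seen in fewer libraries. The region over the last codons (chrX:78046288-78046864, exon 23), centred 51 nt before the stop codon, was present in T24 replicates 1, 3 and 4 and in all 5 replicates of T24R2 (Fisher's exact p = 0.444). Its fold enrichment was 10.2, 5.98 and 7.31 in T24 and 4.97, 6.91, 9.97, 5.61 and 16.9 in T24R2. In exon 4, the region at codon 383 (chrX:77989665-77989904) was absent from T24 and present in T24R2 replicates 2, 4 and 5 with fold enrichments of 5.12, 6.65 and 4.57 (Fisher's exact p = 0.167). Without T24R2 replicate 1 or without T24R2 replicate 3, neither of which had the peak, Fisher's exact p was 0.0476. Any region with peaks in 0 T24 and 3 T24R2 libraries reaches this p in the same way, so the change is not particular to ATP7A. With lists of equal length, or with the −log10 q limit raised to 10, the difference in presence fell from 60 to 0 percentage points (Fisher's exact p = 1). The remaining region of exon 4, at codon 204, was found in 1 T24 and 2 T24R2 libraries.

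ATP7A had 2, 2, 2, 2 and 1 exonic peaks in the T24 libraries and 3, 3, 2, 3 and 4 in the T24R2 libraries. With every list shortened to 17203 peaks, an alternative added after the data were seen, the counts were 2, 2, 1, 2 and 1 against 2, 2, 2, 1 and 2. At equal list length the counts of the lines therefore covered the same range.

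ATP7B, the exporter known best from liver, where it sends copper into bile, had 6 regions, and 4.33% of protein-coding genes had at least as many. Present in all 10 libraries were the region around its stop codon and the start of its 3′UTR and a region in its 5′UTR. The first (chr13:51934302-51935053, minus strand) had summits from 70 nt before to 327 nt past the stop codon. Its fold enrichment was 27.8, 7.29, 14.5, 13.1 and 10.3 in T24 (14.6 ± 7.88, SD, n = 5) and 14.0, 24.3, 9.38, 11.7 and 19.0 in T24R2 (15.7 ± 5.98, SD, n = 5). The spread within each line was wide, and the difference was 0.07 on the log2 scale (SE 0.30, 95% interval -0.55 to 0.69).

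The 5′UTR region of ATP7B (chr13:52011040-52012069) lay in the first exon, with fold enrichments of 9.31, 8.27, 9.47, 6.80 and 10.3 in T24 (8.83 ± 1.34, SD, n = 5). T24R2 had 8.88, 12.9, 10.4, 15.0 and 10.6 (11.5 ± 2.40, SD, n = 5). T24R2 replicates 2 to 5 were above every T24 library, and replicate 1 fell within the T24 range. The centred difference was 0.28 (SE 0.24, 95% interval -0.21 to 0.78, limma unadjusted p = 0.252). The long second exon of ATP7B had a weaker region at codon 226 (chr13:51974298-51975003) in 3 T24 and 5 T24R2 libraries, with fold enrichments from 3.55 to 6.45 over these 8 libraries. The other 3 regions, all in coding sequence, were each found in a single library, at codon 1219 and codon 369 in T24 and at codon 21 in T24R2.

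LRRC8A, the subunit every VRAC channel needs, had the most exonic peaks of the 7 genes, between 4 and 6 in each library. Most of them were weak: the median percentile of its values was 14.9, against 77.2 for ATP7A, 68.7 for ATP7B and 45.3 for LRRC8D. Both regions in its long coding exon of 2165 nt were present in all 10 libraries. At codon 229 (chr9:128907044-128908120) fold enrichment was 4.34 ± 0.816 in T24 and 5.21 ± 2.17 in T24R2 (SD, n = 5), a log2 difference of 0.10 (95% interval -0.43 to 0.64). At codon 667 (chr9:128908955-128909318) it was 3.76 ± 1.63 and 3.16 ± 0.425 (SD, n = 5), a difference of -0.25 (95% interval -0.86 to 0.36). Neither interval left out 0. In the region at codon 229, the median summit, the strongest peak had its summit at 128907403 in T24 replicate 3 and 128907469 in T24 replicate 5. In the other libraries it lay between 128907770 and 128907857, so the compared values do not all come from the same part of the region. The 5′UTR region (chr9:128885883-128886092) was present in 4 T24 and 5 T24R2 libraries, but only 6 of its 9 peaks had their summit in an exon.

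The 3′UTR of LRRC8A held a pair of regions, both present in all 10 libraries. The one 124 nt past the stop codon (chr9:128916071-128917194) had fold enrichments of 8.74, 4.03, 7.12, 8.57 and 6.24 in T24 and 4.01, 9.44, 6.34, 13.7 and 6.74 in T24R2, which overlapped (log2 difference 0.05, 95% interval -0.54 to 0.64). The distal one, 1163 nt past the stop codon (chr9:128917364-128917945), had 3.14, 3.01, 2.99, 3.25 and 3.16 in T24 (3.11 ± 0.107, SD, n = 5). In T24R2 it had 3.27, 6.45, 4.05, 5.77 and 7.59 (5.43 ± 1.76, SD, n = 5).

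Every T24R2 library was above every T24 library in this distal region, as in 2.76% of the tested regions, although T24R2 replicate 1 exceeded the highest T24 library by little. After centring, the lines overlapped (2.45% of the tested regions did not overlap in that direction). In the lists the peak ranked at percentiles 3.22 to 4.90 in T24 and 5.81 to 60.2 in T24R2. The centred difference was 0.64 (SE 0.24, 95% interval 0.14 to 1.14), with a limma unadjusted p of 0.0139 and an adjusted p of 0.214. The exact permutation p was 0.0238. On percentiles among the tested regions the difference was 11.1 points with a limma unadjusted p of 0.128, and over the alternatives the adjusted p ran from 0.0585 to 0.524. The 2 regions of the 3′UTR were not tested against each other.

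LRRC8D, the subunit that lets platinum drugs through the channel, showed the largest estimated difference of the 10 tested regions, just before its stop codon. This region (chr1:89934406-89935841) lies in the long coding exon of 3545 nt, with its summits between 165 and 107 nt before the stop codon. Fold enrichment was 12.6, 8.87, 17.4, 15.2 and 12.7 in T24 (13.3 ± 3.19, SD, n = 5) and 8.72, 7.26, 4.89, 8.90 and 15.5 in T24R2 (9.05 ± 3.94, SD, n = 5). T24R2 replicates 1, 2 and 3 were below every T24 library, while replicate 5 was above 4 of the 5. The peak ranked at percentiles 71.9 to 95.3 in T24 and 26.8 to 93.9 in T24R2.

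The centred difference in this LRRC8D region was -0.72 (SE 0.27, 95% interval -1.28 to -0.17), with a limma unadjusted p of 0.0132 and an adjusted p of 0.211. The exact permutation p was 0.0317. Leaving out each library in turn gave differences from -0.91 to -0.58 and limma unadjusted p from 0.00215 to 0.0493. With log10 of −log10 q, centred on each library's median, in place of log2 fold enrichment, the limma unadjusted p was 0.0706. Over the alternatives the adjusted p ran from 0.125 to 0.385. The region was present in all 10 libraries, so the lines were alike in its presence.

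The other LRRC8D regions overlapped between the lines. At codon 280 (chr1:89933526-89934086) fold enrichment was 5.91, 5.67, 2.99, 3.97 and 6.31 in T24 and 5.25, 3.73, 8.11, 4.64 and 4.37 in T24R2, with a log2 difference of -0.02 (95% interval -0.66 to 0.61). At codon 82 (chr1:89933162-89933463) a weaker peak was present in 3 libraries of each line. The region at the start of the gene (chr1:89820495-89821677) was present in all 10 libraries with fold enrichments from 10.2 to 20.6 and a difference of 0.03 (95% interval -0.47 to 0.53). Only 4 of its 16 peaks had their summit in an LRRC8D exon. In 6 libraries no summit lay there, so the value of this region is largely not that of LRRC8D.

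**Figure D3:**
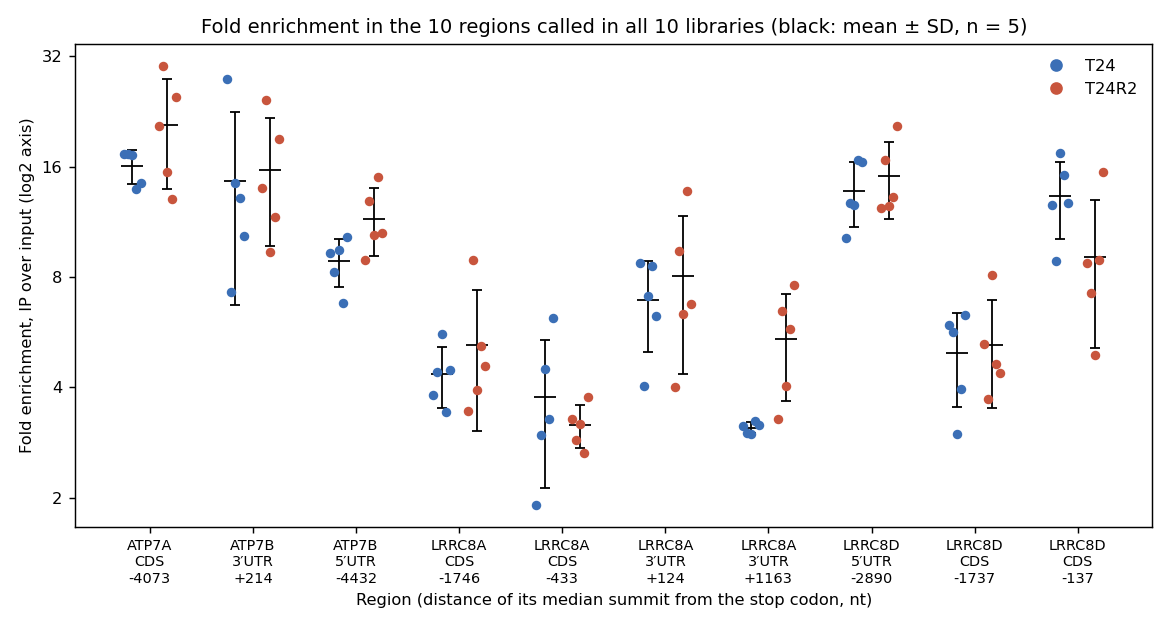
Fold enrichment of IP over input (log2 axis) in each IP library for the 10 regions present in all 10 libraries, labelled by gene, part of the transcript and distance from the stop codon in nt. Blue points are T24, red points T24R2, and black bars give the mean ± SD of 5 libraries. The LRRC8A region at +1163 is the one in which all T24R2 points lie above all T24 points, and in the LRRC8D region at -137 the T24R2 mean is 9.05 against 13.3.

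Along the transcripts, the strong peaks of the set lay at different places in different genes. In ATP7A the strongest was early in the coding sequence, 4073 nt before the stop codon, in an internal exon of 490 nt, whereas its region beside the stop codon missed 2 T24 libraries. In ATP7B and LRRC8D the median summit of the strongest region with exonic summits in every library was within 214 nt of the stop codon, on its 3′ side in ATP7B and on its 5′ side in LRRC8D. Raising the limit on the −log10 q of a peak from 2.00 to 10 left 5 of the 10 regions present in all 10 libraries, against 39.7% of all such regions.

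**Figure D4:**
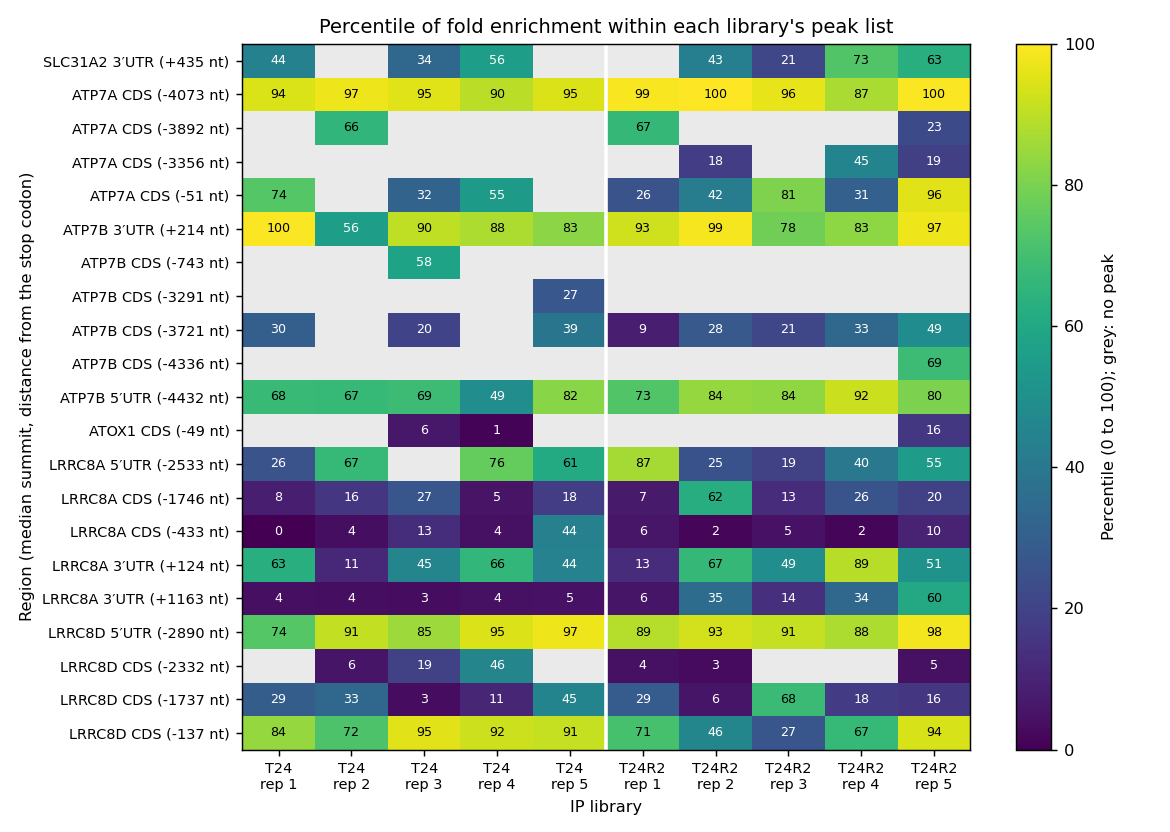
Percentile of each region's fold enrichment among all peaks of the same library (0 weakest, 100 strongest, grey where no peak was called), for the 21 regions in rows and the 10 IP libraries in columns. ATP7A in exon 3 lies between 87.4 and 99.6 in all libraries, and the LRRC8A region 1163 nt past the stop codon lies at or below 4.90 in T24 and at or above 5.81 in T24R2. Lists differ in length, so a percentile is relative to its own list.

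The other genes of platinum and copper handling were counted over the same tests. Before adjustment, Fisher's exact test picked out 7.11% of all regions with more T24R2 libraries and 2.09% with more T24 libraries. The limma shares before adjustment were 7.6% of tested regions higher in T24R2 and 6.36% higher in T24. Whether the lists below depart from these shares was not tested. The other VRAC subunits LRRC8B, LRRC8C and LRRC8E all had exonic regions, 11 in all and 7 of them in every library. Of these, 1 passed Fisher's exact test unadjusted, in LRRC8B (chr1:89582920-89583264, p = 0.0476, adjusted p = 0.517), where T24 had 4 libraries with a peak and T24R2 had 0. It also lay in an exon of LRRC8C-DT. By strength, 1 of the 7 passed an unadjusted p under 0.05, lower in T24R2, and 0 passed the limma adjusted p. The median of their 7 differences was 0.09.

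Of 20 genes for copper chaperones and homeostasis, 12 had exonic regions, 27 in all and 11 in every library. Before adjustment, Fisher's exact test picked out 1 of the 27 in each direction. A region of STEAP2, a metalloreductase that can reduce copper and iron, was absent from T24 and present in all 5 libraries of T24R2 (chr7:90236795-90237214, Fisher's exact p = 0.00794, adjusted p = 0.195). A region of COX19, a copper protein of mitochondrial respiratory complex assembly, was present in 4 libraries of T24 and absent from T24R2 (chr7:898472-898961, Fisher's exact p = 0.0476, adjusted p = 0.517). It also lay in an exon of ADAP1, away from the other COX19 regions. Those began at chr7:965247, chr7:966399 and chr7:967111, with 2, 5 and 5 libraries in T24 and 0, 4 and 5 in T24R2. Of the 11 regions tested by strength, 1 passed an unadjusted p under 0.05, higher in T24R2, and their median difference was 0.08.

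Of 15 other platinum carriers, which include the organic cation transporters and multidrug pumps, 4 had exonic regions, 9 in all and 3 in every library. None passed Fisher's exact test unadjusted, and 1 passed limma unadjusted, higher in T24R2. The 3 differences were 0.81 and -0.60 in ABCC1 and -0.51 in ABCC5. Their median was thus the value of the ABCC5 region, and the ABCC1 regions differed in sign. No region of any of these 3 lists passed an adjusted p by limma, against 0.794% of all tested regions. After adjustment, Fisher's exact test and the exact permutation test called 0% of all regions, so their result says nothing particular about these lists.

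Peaks do not measure expression, so the cell type can be checked only in part: 3 of 11 urothelial and epithelial markers had an exonic peak, and so did 3 of 7 markers of other cell types. KRT7, a urothelial keratin, had a region in all 10 libraries, which also lay in an exon of KRT87P. Other KRT7 regions (chr12:52233103-52233479 and chr12:52243465-52243524) were present in 2 and 1 libraries of T24R2 and absent from T24. The KRT18 region (chr12:52952710-52952849) was likewise present in 2 libraries of T24R2 and absent from T24. GATA3 went the other way. A region of GATA3, a urothelial transcription factor named after its values were seen, was present in all 5 T24 libraries and absent from T24R2 (Fisher's exact p = 0.00794, adjusted p = 0.195), and a second GATA3 region was present in 3 libraries of T24 and absent from T24R2. Of the other cell types, the endothelial marker PECAM1 had a region in 4 T24 and 5 T24R2 libraries. COL1A1 and PDGFRB each had a region in only 1 T24 library and in 0 T24R2 libraries. Whether these markers moved with the values of the 7 genes was not tested. Over the 10 libraries, the pattern of the LRRC8D region before the stop codon was most like that of regions in TLR4 (r = 0.941), INHBB (r = 0.900) and INPP5E (r = 0.898). These are Pearson correlations of centred log2 fold enrichment, the highest of 8659 exonic regions searched, and each point is a library with its own depth and scale.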

How the data were processed

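The 10 IP peak lists of T24 and T24R2 (5 each, grouped by sample title) were analysed. Following the study's methods, the authors aligned reads to hg38 with STAR 2.7.0 and GENCODE 39, kept unique reads without duplicates with SAMtools 1.10, and called IP over input peaks for each library with MACS2 3.0.0a6. Each deposited row gives positions, a summit, a score, the fold enrichment (a ratio of IP over input), the −log10 p-value and, at 2.00 or above, the −log10 q-value. Scores and −log10 p-values were checked but not tested. The deposited merged list was identical to the merge of the 10 lists. No reads were given, so the count tests of the study could not be run, depth is unknown, and no interval that needs depth is printed.

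Summits were placed in exons of GENCODE 44 on hg38, and 99.2% of peaks lay on sequences of the reference. Distances and codons refer to the Ensembl canonical transcript. Presence was any peak in a merged region, compared with Fisher's exact test (two-sided) with Benjamini-Hochberg adjustment over 43676 regions. Strength was tested by limma 3.58.1 (R 4.3.3) over the 9577 regions present in all 10 libraries, with no covariates, after a check on simulated data. Python 3.11.15, pandas 2.3.3 and scipy 1.17.1 were used.

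The genes and lists were chosen with earlier results of these data known. Named were all 7 genes with every exonic region, the genes of the pathway lists with a region under an unadjusted Fisher's exact p of 0.05 or an adjusted limma p of 0.05, and the 3 regions most correlated with the LRRC8D region. A further list and its result are not reported here. Alternatives changed the q-value limit, list length, cover, gene assignment, scale, measure, peak taken, regions tested, test and libraries, and added a replicate block.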

Additional observations from a re-analysis of the deposited data

How the results depend on the processing

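Of 598 recomputed values, 23 changed direction. Leaving out each library in turn, the count of member regions called by presence ran from 0 to 1. Calls here were at an unadjusted Fisher's exact p under 0.05, and the share of all regions called without each library is not given. The 1 call was the ATP7A region at codon 383 without T24R2 replicate 1 or 3, where the difference in presence was 75 percentage points. In this region the difference was 0 with lists of equal length or with the −log10 q limit raised to 10. Any region with peaks in 0 T24 and 3 T24R2 libraries is called when a T24R2 library without the peak is left out. The count of member regions with an unadjusted p under 0.05 by strength was 2. It fell to 1 when percentiles among the tested regions replaced fold enrichment, which lost the distal LRRC8A region. It also fell to 1 when log10 of −log10 q replaced fold enrichment, which lost the LRRC8D region before the stop codon. At an adjusted p, 0 member regions passed under any alternative. On log10 of −log10 q the difference turned to -0.10 for LRRC8D at the gene start, 0.12 for LRRC8D at codon 280 and -0.019 for ATP7B in the 3′UTR. LRRC8D at the gene start also turned to -0.21 with the mean of the peaks, and codon 280 to 0.072 without centring and 2.93 percentile points in the lists. ATOX1 presence turned to 20 percentage points at a −log10 q of at least 5. Without 1 library each, differences ran from -0.086 to 0.13 for LRRC8D at the gene start, -0.25 to 0.12 at codon 280, -0.10 to 0.33 for ATP7B in the 3′UTR, -0.076 to 0.20 for LRRC8A at codon 229 and -0.15 to 0.24 for LRRC8A 124 nt past the stop codon. None of these changed directions had an unadjusted p under 0.05, and the cause was not tested. With the replicate block, limma called 50 of the 9577 regions instead of 76 at an adjusted p under 0.05, and 0 and 2 member regions at the adjusted and unadjusted limit, as without it. Same-numbered libraries correlated between -0.042 and 0.121 in their deviations, so the numbers were not taken as pairs. Over all tested regions the adjusted count was 270 on log10 of −log10 q and 143 with regions in at least 3 libraries of each line. It was 0 by exact permutation, and 29 at the lowest without 1 library. The unknown depth limits every statement on an absent peak, and values rest on the strongest peak of a region, whose summit can move between libraries.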
